A study of Mus musculus with 8 samples.

Results

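A chaperone network, in large part cytosolic and mitochondrial, was followed through 80 genes of the 21761 in the count table. They were chosen by gene symbol alone: the J protein families Dnaja, Dnajb and Dnajc, the Hspa and Hsph families, Hsp90a, Hspb, Hspd and Hspe, the heat shock factors Hsf, and the numbered Bag genes. The 6 symbols Hspa5, Dnajb9, Dnajb11, Dnajc3, Dnajc10 and Hspbap1 were left out, the first 5 of them genes of the endoplasmic reticulum. This did not remove every gene of that compartment: Hspa13 and Dnajc1, for example, stayed in. The set holds 4 class A, 11 class B and 26 class C J proteins, 13 Hsp70 and Hsp110 genes, 2 cytosolic Hsp90 genes, 8 small heat shock protein genes and Hspbp1. It also holds the 2 genes of the mitochondrial chaperonin, 7 genes counted as heat shock factors and 6 BAG genes. These groups follow the start of the symbol and not function. Hsf2bp, named for binding Hsf2, is thus counted with the factors, and Hspb11 with the small heat shock proteins. RNA came from midbrain dopaminergic neurons of C57BL/6 mice, isolated with tagged ribosomes (TRAP, translating ribosome affinity purification), so the values describe ribosome-associated RNA. The 4 MPTP libraries were from mice injected intraperitoneally once a day for 5 days with MPTP-HCl (30 mg/kg as free base), and the 4 saline libraries from mice given saline on the same schedule. Both were collected 4 days after the last injection. The sources used here do not give the promoter that drives the ribosome tag, the age and sex of the mice, or whether a library pools animals.

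J proteins bind unfolded clients and hand them to Hsp70, whose ATPase they switch on. Hsp110 proteins and BAG-domain proteins then release the nucleotide, and Hsp90 matures a narrower set of clients such as kinases and receptors. Small heat shock proteins hold clients without ATP, and the chaperonin of Hspd1 and Hspe1 folds proteins inside mitochondria. The factor Hsf1 drives the heat-inducible members through heat shock elements, which are inverted repeats of GAA. In neurons the constitutive Hsp70 Hspa8 works with the J protein Dnajc5 at synaptic vesicles and with Dnajc6, auxilin, in removing clathrin coats. MPTP is turned in the brain into an inhibitor of mitochondrial complex I that dopaminergic neurons take up.

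Because heat shock elements are what ties part of this network together, promoter windows were taken from RefSeq (GRCm38.p6), each running from 250 bases before a start site to 50 after it. Windows were matched for 63 of the 80 genes. Paired repeats were searched as GAANNTTC or TTCNNGAA, each of which is its own reverse complement. Runs of 3 repeats were searched as GAANNTTC followed by NNGAA, or its reverse complement, TTCNNGAA followed by NNTTC, so each such run also holds paired repeats. A paired repeat was found in 23.5% of the 81 member windows and in 15.1% of the 32851 windows of the same length in the whole table. For 3 repeats the shares were 7.41% and 0.603%. The 6 member windows with 3 repeats belong to 4 genes. The runs of Dnajb6 and of Hsph1 were each counted in overlapping windows, and Hspd1 and Hspe1 share theirs. The 7.41% therefore counts the same bases more than once. Of the 14 members listed as heat-inducible, 11 had a window and 10 of these held a paired repeat, against 7 of the 52 other members with a window. Dnajb1 was the listed gene without a match. The windows below are printed because they belong to the called gene Dnajb4 and to members with 3 repeats or, for Hspa1a, the classical stress-inducible Hsp70. They run 5′ to 3′ on the gene's strand, with the matched repeats in capitals.
Dnajb4 (chr3:152193796-152194095, minus strand): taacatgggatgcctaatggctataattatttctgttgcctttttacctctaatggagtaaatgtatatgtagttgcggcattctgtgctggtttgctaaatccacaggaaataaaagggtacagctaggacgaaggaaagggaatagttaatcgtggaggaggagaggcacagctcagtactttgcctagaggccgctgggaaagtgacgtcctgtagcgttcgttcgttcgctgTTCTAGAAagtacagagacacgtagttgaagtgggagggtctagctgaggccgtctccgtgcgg
Hspe1 (chr1:55087898-55088197, plus strand): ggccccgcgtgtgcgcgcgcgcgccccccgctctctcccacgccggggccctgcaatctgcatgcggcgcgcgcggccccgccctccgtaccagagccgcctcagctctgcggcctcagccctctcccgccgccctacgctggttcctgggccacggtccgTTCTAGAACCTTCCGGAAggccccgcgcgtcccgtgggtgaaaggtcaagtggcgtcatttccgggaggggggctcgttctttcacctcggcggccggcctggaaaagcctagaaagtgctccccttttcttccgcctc
Hsph1 (chr5:149636266-149636565, minus strand): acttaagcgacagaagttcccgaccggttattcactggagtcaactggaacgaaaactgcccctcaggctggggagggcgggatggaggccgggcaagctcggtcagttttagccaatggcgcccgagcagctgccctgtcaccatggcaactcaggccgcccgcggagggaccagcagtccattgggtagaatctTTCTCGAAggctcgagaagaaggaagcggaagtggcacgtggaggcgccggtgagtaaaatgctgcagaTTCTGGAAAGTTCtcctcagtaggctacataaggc
Dnajb6 (chr5:29735648-29735947, plus strand): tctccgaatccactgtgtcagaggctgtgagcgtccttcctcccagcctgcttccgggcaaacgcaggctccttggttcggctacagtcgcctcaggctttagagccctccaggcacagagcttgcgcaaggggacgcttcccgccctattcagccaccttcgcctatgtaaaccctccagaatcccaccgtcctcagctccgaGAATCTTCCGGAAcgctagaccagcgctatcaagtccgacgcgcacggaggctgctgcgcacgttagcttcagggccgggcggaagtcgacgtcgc
Hspa1a (chr17:34972107-34972406, minus strand): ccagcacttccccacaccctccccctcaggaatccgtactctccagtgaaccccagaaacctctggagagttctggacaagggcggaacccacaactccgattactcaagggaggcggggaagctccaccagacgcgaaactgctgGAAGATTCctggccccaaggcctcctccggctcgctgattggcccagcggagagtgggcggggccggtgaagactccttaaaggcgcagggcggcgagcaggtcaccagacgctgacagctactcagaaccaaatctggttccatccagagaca
The paired repeat of Dnajb4 begins 14 bases before the annotated start, and a second RefSeq start of Dnajb4 (chr3:152210034-152210333) held no match. Counts are per gene, so transcripts from these starts cannot be told apart. The run of Hspe1 begins 89 bases before its start and spans 18 bases. Hspd1 lies head to head with Hspe1, and the same 18 bases fall in 1 of its own windows. A match is a description of letters and not a shown site of Hsf1.

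Libraries held 54192354 to 78892061 counts. Levels are given in CPM, counts scaled to a common library total after TMM normalisation, and a value after ± is the SD over the 4 libraries of a group (n = 4). Differences are log2 fold changes, MPTP minus saline, from edgeR's quasi-likelihood test, with p-values adjusted over all genes by Benjamini-Hochberg and a threshold of 0.05. The labels do not tie libraries to separate animals, and the spread behind the p-values may therefore be technical. Saline 3 stood apart from the other saline libraries: on the first principal component (20.5% of the variance) it lay at -24.1, beside the MPTP libraries at -23.0 to -15.3, and saline 1, 2 and 4 lay at 26.9 to 38.9. The 16 dopaminergic markers summed to 8586 CPM in saline 3, to 9617 to 11430 CPM in MPTP and to 13260 to 14260 CPM in saline 1, 2 and 4. Oligodendrocyte markers (15 genes) summed to 1854 CPM in saline 3, to 1271 to 1472 CPM in MPTP and to 877 to 1057 CPM in saline 1, 2 and 4, and astrocyte markers (15 genes) to 1195, 961 to 1071 and 791 to 905 CPM in the same order. The 15 microglia and macrophage markers summed to 70.2, 64.5 to 76.6 and 55.8 to 70.1 CPM, and the 15 endothelial markers to 54.7, 41.0 to 52.4 and 36.2 to 44.8 CPM. No marker of these lists was at 0 in any library. In such purified RNA, fewer cells of a type and less RNA per cell cannot be told apart.

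Member levels were led by the main Hsp70 and Hsp90 genes. Together the 80 genes took 0.698% to 0.861% of a library's counts, and Hspa8, Hsp90ab1, Hsp90aa1, Dnajc6 and Dnajc5 made up 47.8% to 51.8% of that. Per kilobase of annotated exon, Hspa8 had the highest saline level at 395.5 ± 60.3 CPM per kb, followed by Hsp90ab1 at 333 ± 45.6, with overlapping ranges. The nucleotide exchange factor gene Bag1 (183 ± 21.9 CPM per kb) and Hsp90aa1 (130.5 ± 21.4) came next, each apart from its neighbours in every saline library. From Dnajc6 (75.4 ± 10.5 CPM per kb) downward, through Hspe1 (60.1), Dnajc5 (54.8), Hspd1 (50.2), Dnajc30 (50.1), Dnaja2 (44.8) and Hsph1 (40.5), each gene overlapped the next. Dnajb4 stood at 20.4 CPM per kb in saline. The heat-inducible members spanned the range, from Hsp90aa1 and Hsph1 above, through Dnaja1 (27.0) and Dnajb1 (21.2), to Hspb1 (0.891), Hspa1a (0.762) and Hspa1b (0.476 CPM per kb). Lengths are unions over all annotated isoforms, so a gene with long rare exons is set too low.

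**Figure D1:**
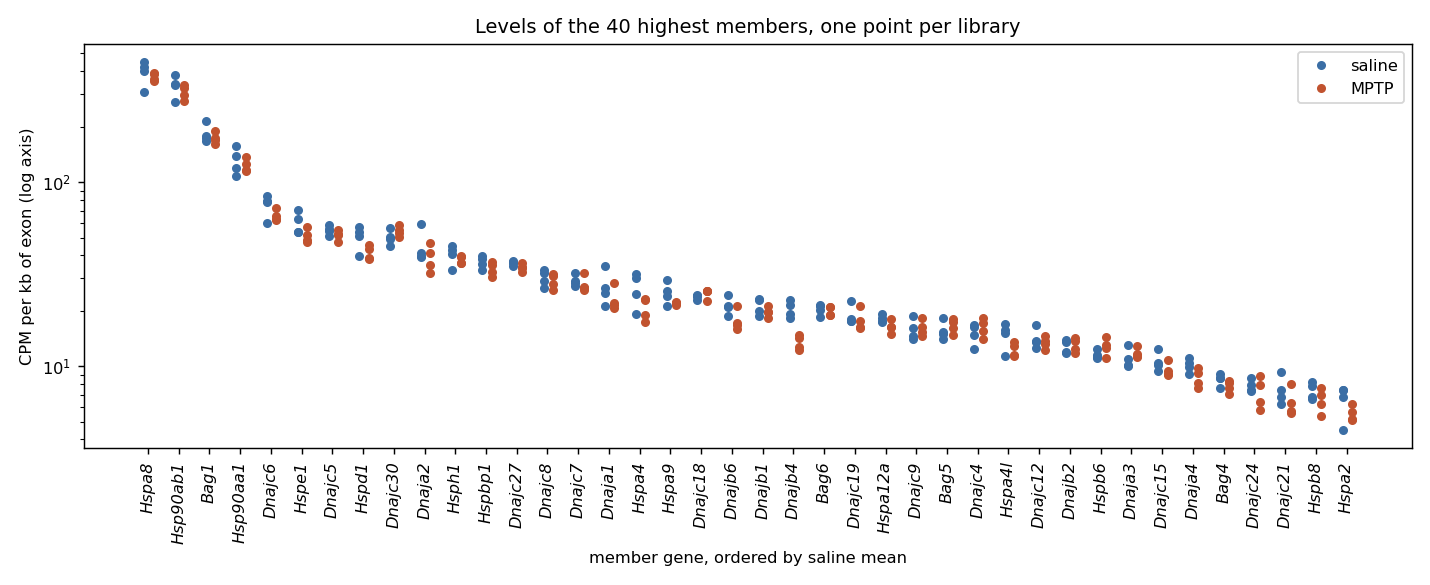
Levels of the 40 highest members in CPM per kb of exon (log axis), ordered by their saline mean, with 1 point for each saline (blue) and MPTP (red) library. Hspa8 and Hsp90ab1 lead at 395.5 and 333 CPM per kb in saline, and the saline and MPTP points lie apart only for Dnajb4.

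Of the 80 genes, 71 passed the filter on low counts and were tested. The other 9 (Dnajb7, Dnajb8, Dnajc5g, Hsf3, Hsfy2, Hspb2, Hspb3, Hspb7 and Hspb9) had at most 31 counts in any library and Hsfy2 had 0 in all 8. In the comparison of MPTP with saline, 1 of the 71 was lower and 0 were higher, where 0.0313% of all 15999 tested genes were lower and 0.075% higher. The lower gene was Dnajb4. At an unadjusted p under 0.05, edgeR counted 7 members lower, beside 4.5% of all genes, and 0 higher, beside 4.28%. The 7 were 2 class B, 2 Hsp70 or Hsp110, 2 chaperonin genes and 1 heat shock factor gene, with 0 in class A, class C, the small heat shock proteins, cytosolic Hsp90 and BAG. At an adjusted p under 0.05, DESeq2 and limma voom each called Dnajb4 lower and 0 members higher as well. The groups did not overlap for 1 member, Dnajb4, in the lower direction (2.14% of all genes) and for 0 in the higher direction (2.04%). Log2 fold changes were below 0 for 46 members and above 0 for 25, with a median of -0.08 beside 0.00 over all tested genes. The size of the change was under 0.25 on the log2 scale for 59 of the 71 (83.1%), beside 73.6% of all genes. The standard error had a median of 0.11 over the members and reached from 0.08 for Dnajc27 to 0.86 for the nearly silent Dnajb13.

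**Figure D2:**
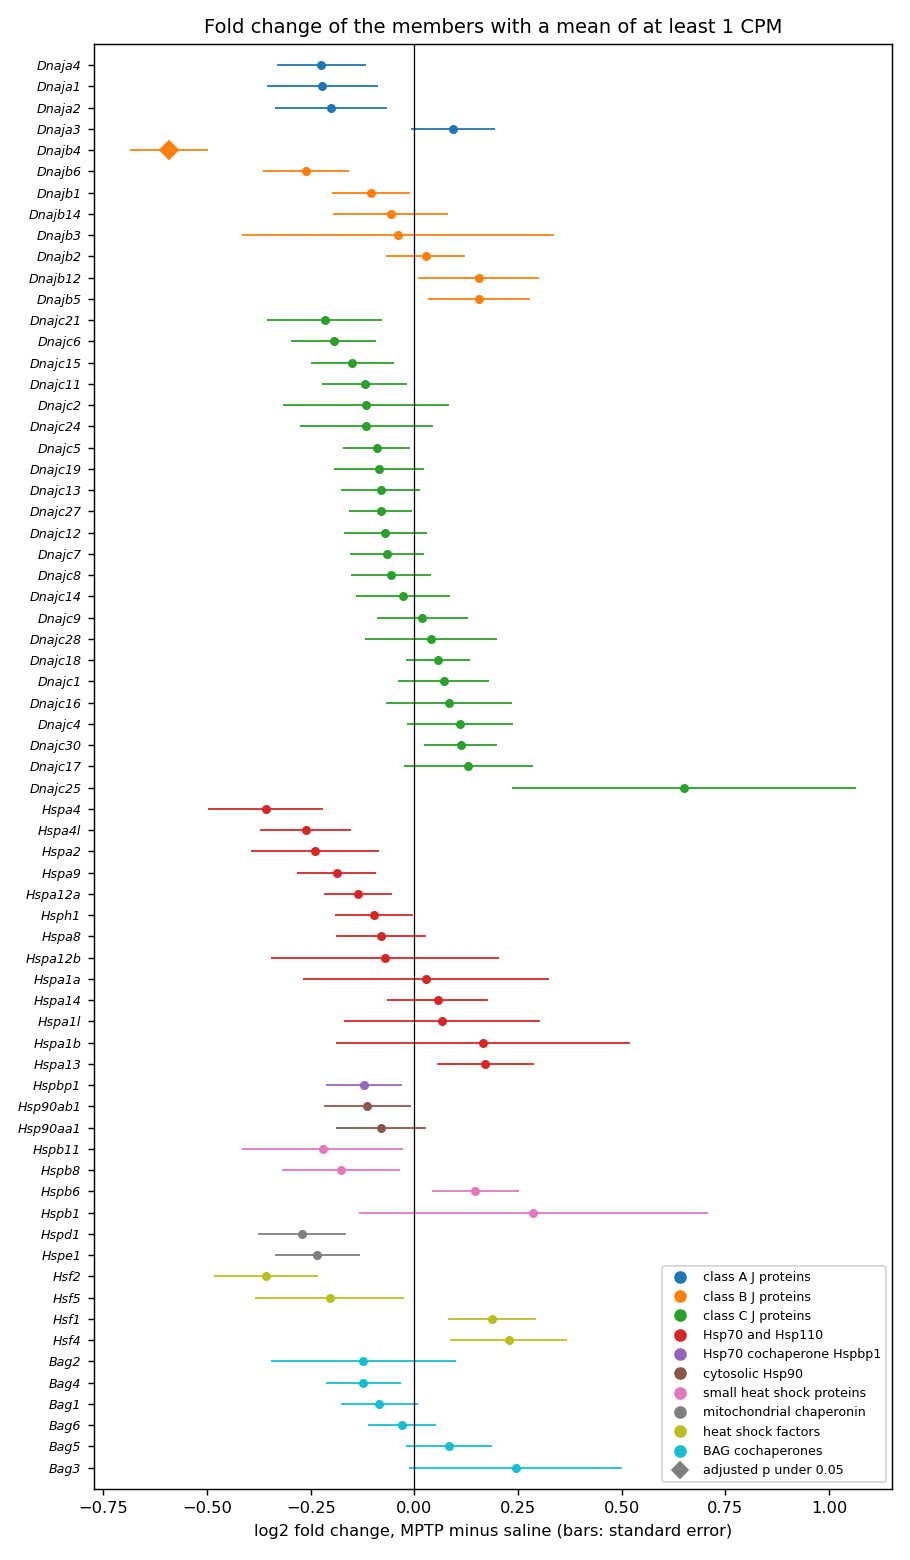
Log2 fold change (MPTP minus saline) of the 67 tested members with a mean of at least 1 CPM, coloured by family, with bars for the standard error. Dnajb4 at -0.59 is the lowest and is the 1 gene past an adjusted p of 0.05 (diamond), and most others lie within 0.25 of 0.

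Class B J proteins hold the called gene. Dnajb4, a cytosolic J protein of the type that works with Hsp70 on misfolded and signalling proteins, was at 130.2, 112, 125 and 108 CPM in MPTP libraries 1 to 4. In saline libraries 1 to 4 it was at 188, 200.3, 160.4 and 167.5 CPM. Every MPTP library lay below every saline library, and saline 3, though the lowest of its group, stayed above all of them. With means of 119 ± 10.6 in MPTP against 179 ± 18.4 CPM, Dnajb4 fell by 0.59 on the log2 scale, to 0.6635 of its saline level (SE 0.09, edgeR adjusted p = 0.0136). The window with its paired repeat is printed above. It is protein-coding on chromosome 3 (152178511 to 152210302, minus strand, GRCm38), its exons overlap no other GENCODE gene, and no run of 100 of its transcript bases, the read length, occurs in another gene. Of 17 alternative settings 12 kept its call and all 17 kept its direction, with log2 fold changes from -0.64 to -0.53. The call ended without MPTP 2 (edgeR adjusted p = 0.0816), without MPTP 4 (0.134) and without saline 1 (0.0666), and without saline 3 together with the non-neuronal marker score as a covariate (0.231), besides 1 fit given with the processing alternatives.

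For the nearest relatives of Dnajb4 the groups overlapped. Dnajb1, the heat-inducible partner of Hsp70, was at 63.0, 58.4, 67.9 and 62.8 CPM in MPTP against 59.95, 74.1, 63.7 and 73.4 in saline, with overlapping groups (log2 fold change -0.10, SE 0.09, edgeR adjusted p = 0.7795). Dnajb5, a further member of this subtype, was at 23.2, 21.2, 22.5 and 25.8 CPM in MPTP against 21.8, 20.0, 17.2 and 24.3 in saline (0.16, SE 0.12, adjusted p = 0.752). Ratios within a library do not depend on scaling. That of Dnajb4 to Dnajb1 was 2.07, 1.92, 1.84 and 1.72 in MPTP and 3.14, 2.70, 2.52 and 2.28 in saline. That of Dnajb4 to Dnajb5 was 5.16 ± 0.668 in MPTP against 8.73 ± 1.34 in saline, and the groups did not overlap. The ratio of Dnajb4 to Hspa8 was 0.0738 ± 0.00378 and 0.106 ± 0.0103. Since Dnajb4 was singled out for its fall, these ratios are a description without a test.

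Among the other class B genes, Dnajb6, which keeps aggregation-prone proteins soluble, was at 104, 101.5, 128 and 96.5 CPM in MPTP against 127, 147.5, 113 and 129 in saline. MPTP 3 lay inside the saline range, and the log2 fold change of -0.26 (SE 0.10) did not pass (edgeR adjusted p = 0.492). Dnajb2, a neuronal J protein, was at 55.3 CPM in MPTP against 54.2 in saline (log2 fold change 0.03, SE 0.10). Dnajb3, near 2 CPM, varied by 31.9% (coefficient of variation) among the saline libraries.

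In class A, 3 of the 4 genes had log2 fold changes near -0.2 and 0 passed. Dnaja1, a general partner of Hsp70, was at 191, 185.5, 244 and 178 CPM in MPTP against 229, 303, 184 and 217 in saline (-0.22, SE 0.13, edgeR adjusted p = 0.656). Saline 2 was its highest library and MPTP 3 the second highest, so the groups overlapped. Dnaja4 had -0.22 (SE 0.11) and Dnaja2 -0.20 (SE 0.14), whereas the mitochondrial Dnaja3 had 0.09 (SE 0.10). The exons of Dnaja4 overlap those of Wdr61 on the other strand, and 41.5% of its runs of 100 bases occur in that gene. Without a stated strand some of its reads cannot be told apart.

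Of the 26 class C genes 25 were tested, 15 below and 10 above 0 with a median of -0.07, and 0 were called. Dnajc6 was the class C gene with the smallest p: 389, 429, 368 and 372 CPM in MPTP against 499, 467, 356 and 461 CPM in saline. Its MPTP libraries lay below saline 1, 2 and 4 and above saline 3, and the log2 fold change was -0.19 (SE 0.10, edgeR adjusted p = 0.606). Dnajc5, the cysteine string protein of synaptic vesicles, was at 357.9 ± 20.85 CPM under MPTP against 381 ± 21.6 under saline, a difference of -0.09 (SE 0.08, adjusted p = 0.779). Dnajc12, a J protein that serves the aromatic amino acid hydroxylases including tyrosine hydroxylase, had -0.07 (SE 0.10, adjusted p = 0.877). Its 8 libraries lay between 54.7 and 74.6 CPM. Dnajc13, an endosomal J protein, had -0.08 (SE 0.10, adjusted p = 0.849). The highest fold change among members of at least 1 CPM was that of Dnajc25, 0.65 (SE 0.41, adjusted p = 0.680), at 1.70, 0.886, 1.999 and 2.11 CPM in MPTP against 0.581, 1.05, 1.30 and 1.33 in saline. MPTP 2 lay inside its saline range. Dnajc2, a ribosome-bound J protein, had -0.12 (SE 0.20) and reached from 17.0 to 36.9 CPM, with saline 2 and MPTP 3 highest in their groups. Of the 9 members listed as synaptic or endocytic, Dnajc5, Dnajc6 and Hspa8 among them, 8 were below 0 with a median of -0.10. Of these 9, 0 were called, with 2 lower at an unadjusted p under 0.05, beside 4.5% of all genes. Dnajc5, Dnajc6 and Hspa8 were not among these 2 (edgeR unadjusted p = 0.276, 0.0731 and 0.468). The list also holds the general exchange factor genes Hsph1 and Hspa4, the latter its lowest at -0.36.

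In the Hsp70 and Hsp110 family 8 of the 13 genes were below 0 and 0 were called. Hspa8 was at 1668, 1514, 1687 and 1566 CPM in MPTP against 1815, 1923, 1329 and 1737 in saline, a log2 fold change of -0.08 (SE 0.11, edgeR adjusted p = 0.867). All MPTP libraries lay below saline 1, 2 and 4, and saline 3 lay below all of them. The lowest fold change of the family was that of Hspa4, an Hsp110-type exchange factor, at 129, 95.7, 126 and 105 CPM in MPTP against 166, 176, 106 and 136 in saline (-0.36, SE 0.14, adjusted p = 0.491). Hspa4l, its paralog, was at 159, 134, 152 and 135 CPM against 178, 199.5, 134 and 185 CPM (-0.26, SE 0.11, adjusted p = 0.507). Hsph1, the heat-inducible Hsp110, had a smaller difference, 288, 263, 285 and 263 CPM against 310.3, 328, 243 and 296 CPM (-0.10, SE 0.09, adjusted p = 0.805). For these exchange factors saline 3 again sat inside or below the MPTP range. Hspa9, the mitochondrial Hsp70, was at 94.7 ± 1.58 CPM under MPTP against 108 ± 14.8 under saline, a difference of -0.19 (SE 0.09, adjusted p = 0.597).

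The stress-inducible Hsp70 genes stayed low in both groups. Hspa1a had 122 to 249 counts in MPTP libraries and 115 to 162 in saline, or 2.30 ± 0.529 against 2.26 ± 0.571 CPM. The log2 fold change of Hspa1a was 0.03 (SE 0.30, edgeR adjusted p = 0.988). Hspa1b was at 1.49 ± 0.161 and 1.33 ± 0.283 CPM (0.17, SE 0.35). The pair shares much of its sequence: 56.5% of the runs of 100 bases in Hspa1a and 49.9% of those in Hspa1b occur in another gene, mainly in each other, so their split is uncertain. Hspa12b, an Hsp70 relative known from endothelium, was highest in saline 3 at 9.78 CPM, where MPTP libraries had 4.34 to 7.55 CPM and saline 1, 2 and 4 had 3.98 to 5.24 CPM. The endothelial marker sum was also highest in saline 3 (54.7 CPM), and its part in this value was not tested.

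The cytosolic Hsp90 genes did not pass. Hsp90ab1, the constitutive form, was at 974, 826, 1008 and 888 CPM in MPTP against 1018, 1151, 819 and 1010 in saline (log2 fold change -0.11, SE 0.11, edgeR adjusted p = 0.798). As for Hspa8, its MPTP libraries lay below saline 1, 2 and 4 and above saline 3. Hsp90aa1, the inducible form, was at 494, 451, 540 and 457 CPM against 545, 615, 423 and 470 CPM (-0.08, SE 0.11, adjusted p = 0.870), and its groups overlapped even without saline 3. The ratio of the first to the second was 1.90 ± 0.0655 under MPTP against 1.96 ± 0.132 under saline. Reads of Hsp90aa1 may be split, as 38.0% of its runs of 100 bases occur in another gene.

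The mitochondrial chaperonin genes were both below 0 and did not pass. Hspd1, which forms the barrel, was at 115, 103, 121 and 101 CPM in MPTP against 141, 149.9, 105 and 135 in saline (log2 fold change -0.27, SE 0.11, edgeR adjusted p = 0.491). Hspe1, which forms its lid, was at 76.1, 71.2, 84.3 and 69.8 CPM against 79.4, 104, 78.5 and 92.9 CPM (-0.23, SE 0.10, adjusted p = 0.5185). Their promoter windows overlap, and their exons overlap by 112 bases on opposite strands, so without a stated strand some of their reads cannot be told apart. The ratio of Hspd1 to Hspe1 was 1.46 ± 0.0361 in MPTP against 1.502 ± 0.187 in saline. Across all 10 mitochondrial members 0 were called, and the median was -0.10.

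Of 8 small heat shock protein genes 4 were tested, 2 above and 2 below 0, and 0 were called. Hspb6 had the highest level of them, 11.55 CPM per kb in saline, and was at 25.6, 33.1, 28.9 and 30.1 CPM in MPTP against 26.3, 25.9, 28.4 and 25.5 in saline. MPTP 1 lay inside its saline range, and the log2 fold change of Hspb6 was 0.15 (SE 0.10, edgeR adjusted p = 0.718). Hspb11 had -0.22 (SE 0.19, adjusted p = 0.777). Hspb1 had 74 to 92 counts in MPTP libraries and 38 to 76 in saline (log2 fold change 0.29, SE 0.42, edgeR adjusted p = 0.883), and 44.0% of its runs of 100 bases occur in another gene. Hspb8, the partner of Bag3 in selective autophagy, was at 12.7 ± 1.92 CPM under MPTP against 14.4 ± 1.49 under saline, a difference of -0.18 (SE 0.14, adjusted p = 0.758).

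Among the heat shock factors the main ones differed in sign, without passing. Hsf2, a factor that pairs with Hsf1 and acts in development and under proteotoxic stress, was at 26.1, 21.5, 28.5 and 23.1 CPM in MPTP against 33.3, 37.7, 26.6 and 29.4 in saline. Only MPTP 3 lay above saline 3, and no MPTP library reached saline 1, 2 or 4. The log2 fold change of Hsf2 was -0.36 (SE 0.13, edgeR adjusted p = 0.448), the smallest p of the members after Dnajb4. Hsf1, the master factor of the heat shock response, was at 54.4, 46.8, 52.4 and 48.0 CPM in MPTP against 36.7, 42.2, 49.7 and 48.5 in saline (0.19, SE 0.11, adjusted p = 0.6355). In the list of 14 heat-inducible members, 1 was called lower (Dnajb4) and 0 higher, beside 0.0313% and 0.075% of all genes. Of the 14, 10 were below 0 and the median was -0.10.

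BAG genes, several of whose products release nucleotide from Hsp70, gave 0 calls among 6. Bag1 was at 233 ± 16.1 CPM under MPTP against 247.5 ± 29.5 under saline, a difference of -0.08 (SE 0.09, edgeR adjusted p = 0.837). Bag3, an Hsf1 target that routes clients to autophagy, was at 9.57, 7.28, 5.11 and 8.22 CPM in MPTP against 7.28, 3.43, 8.80 and 5.99 in saline, with overlapping groups (0.24, SE 0.26, adjusted p = 0.827). Bag5, which binds Hsp70 in neurons, had 0.08 (SE 0.10, adjusted p = 0.859).

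**Figure D3:**
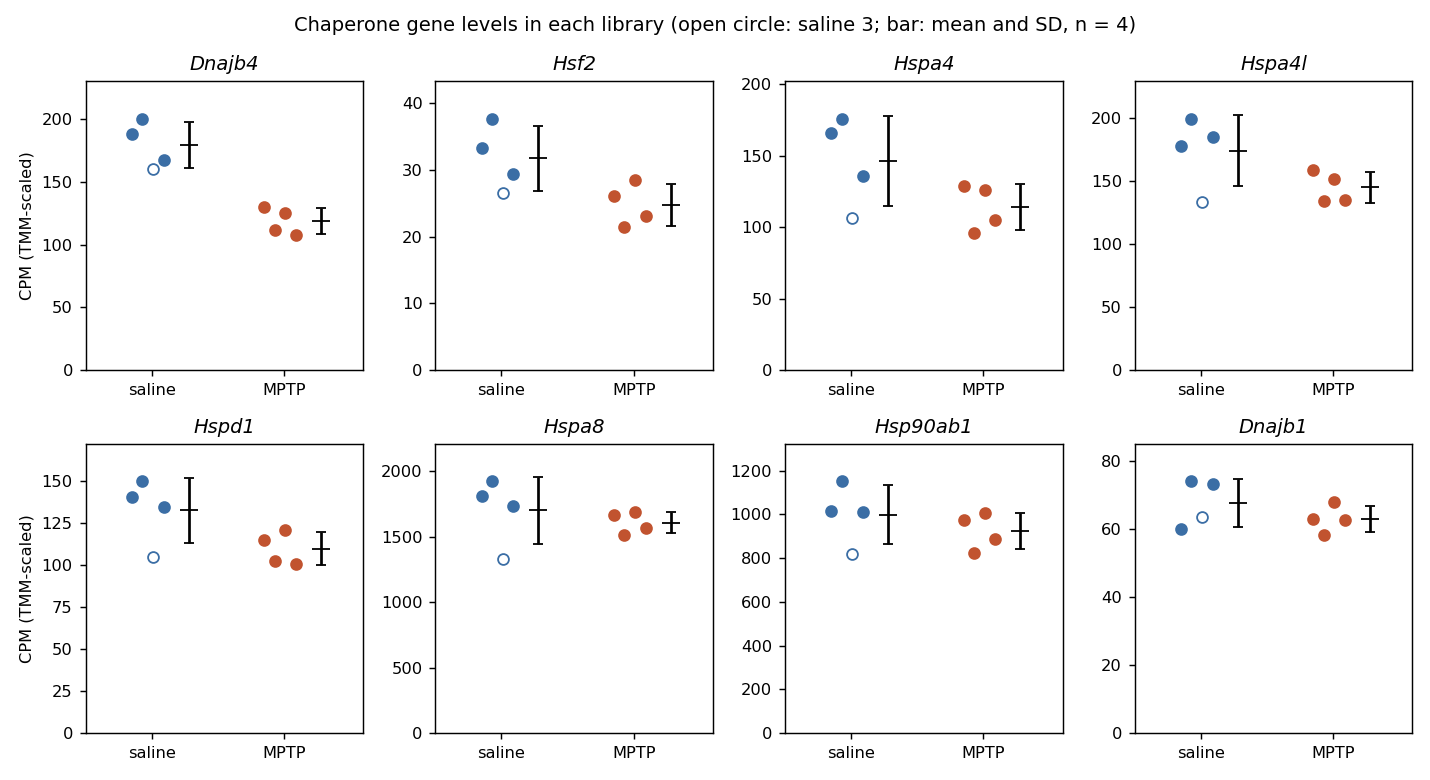
Levels in CPM of 8 members, with 1 point for each library, saline 3 as an open circle, and the mean and SD of each group (n = 4). Dnajb4 separates the groups, whereas for Hspa4, Hspa4l, Hspd1, Hspa8 and Hsp90ab1 saline 3 lies inside or below the MPTP points.

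A larger number of members separated MPTP from saline 1, 2 and 4 than separated the full groups. Every MPTP library lay below these 3 saline libraries for 12 of the 71 members, or of 72 when saline 3 was left out, beside 7.52% of all 16180 genes tested there. These 12 were Dnajb4, Hsf2, Hspa8, Hspa2, Hspa4, Hspa4l, Hspa9, Hsph1, Hsp90ab1, Hspd1, Dnajc6 and Bag4, and for 11 of them saline 3 lay inside or below the MPTP range, the exception being Dnajb4. In the higher direction 0 members separated, beside 7.22% of all genes. Without saline 3, edgeR called 4 members lower, beside 0.983% of all genes, and 0 higher, beside 0.853%. They were Dnajb4 (log2 fold change -0.64, adjusted p = 0.00158), Hspa4 (-0.48, adjusted p = 0.0360), Hspa4l (-0.37, adjusted p = 0.03645) and Hspd1 (-0.37, adjusted p = 0.0405). Saline 3 was singled out after it was seen to lie beside the MPTP libraries. Leaving it out favours differences between the groups, so these calls are a description. At an unadjusted p under 0.05 the counts were 14 lower and 1 higher, beside 8.25% and 8.68% of all genes.

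With all 8 libraries edgeR called 0 astrocyte, oligodendrocyte, microglia and macrophage, endothelial or dopaminergic markers in either direction. At an unadjusted p under 0.05, 3, 1, 3, 3 and 0 were higher and 0, 0, 0, 0 and 2 lower, in that order. Over all genes, 4.28% were higher and 4.5% lower. Without saline 3, edgeR called 4 of 15 astrocyte, 6 of 15 oligodendrocyte and 2 of 15 microglia and macrophage markers higher. It called 0 of 15 endothelial markers, and 3 of 16 dopaminergic markers lower. Over all genes, 0.853% were called higher and 0.983% lower there. The non-neuronal marker score, the mean log2 CPM over the astrocyte, oligodendrocyte, microglia and endothelial lists, was 2.79 to 3.16 in MPTP, 2.35 to 2.69 in saline 1, 2 and 4, and 3.26 in saline 3. The difference between groups was 0.25 (exact two-sided permutation p = 0.286) with all libraries. Without saline 3 it was 0.44, given with no test, since that library was set aside with its marker levels in view. With this score as a covariate on all 8 libraries, the median over the members was -0.01, and Dnajb4 was again the 1 called member (log2 fold change -0.53, edgeR adjusted p = 0.0328), beside 0.0313% of all genes lower and 0.075% higher. In that fit Hspa4 had -0.17, Hspa4l -0.11, Hspd1 -0.14, Hspa8 0.06 and Hsp90ab1 0.02. With the covariate and without saline 3, Dnajb4 had -0.62 (adjusted p = 0.231). Whether the share of glial RNA accounts for these values was not tested.

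**Figure D4:**
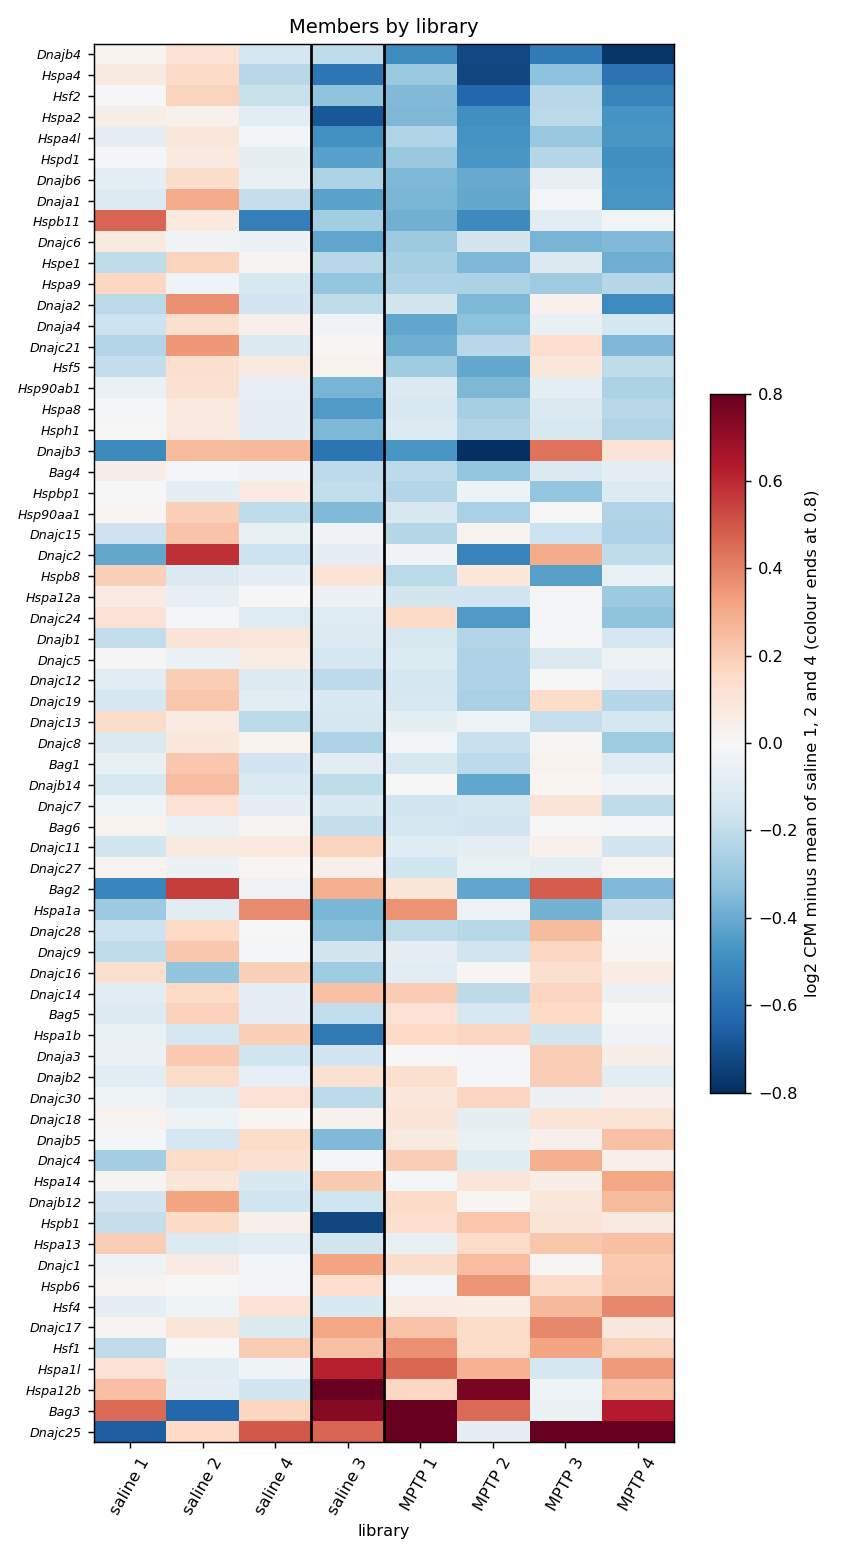
Log2 CPM of the 67 tested members of at least 1 CPM minus their mean in saline 1, 2 and 4, with a column for each library and rows ordered by the log2 fold change without saline 3. The top rows, from Dnajb4 and Hspa4 to Hspd1, are blue (lower) in all 4 MPTP columns. In saline 3, Dnajb4 is paler than in any MPTP library, and the other top rows are as blue as at least 1 MPTP library.

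Other chaperone systems were counted from lists. Over all 15999 tested genes, 8014 were above 0 and 7985 below. At an unadjusted p under 0.05, 4.28% of them were higher and 4.5% lower. Of 26 cochaperones of Hsp90 and Hsp70, 0 were called, 18 were below 0 and the median was -0.05, with 3 lower and 0 higher at an unadjusted p under 0.05. The smallest p values belonged to St13 (log2 fold change -0.30), Ptges3 (-0.33) and Tomm70a (-0.24), with edgeR adjusted p of 0.415, 0.415 and 0.506. Of 14 genes of the cytosolic chaperonin TRiC and of prefoldin, 12 were below 0 (median -0.08) and 0 were called (2 lower unadjusted), with Cct8 at -0.34 (adjusted p = 0.415). Without saline 3, Cct8 (-0.43, adjusted p = 0.0237) and Tomm70a (-0.33, adjusted p = 0.0488) were called. Of the 9 mitochondrial genes outside the members, 6 were above 0 with a median of 0.03, and edgeR called 0, with 1 higher and 0 lower at an unadjusted p under 0.05. That gene was Dnlz (0.20, adjusted p = 0.506), whose groups did not overlap, and the next were the exchange factor gene Grpel1 (-0.16) and the Hsp90 gene Trap1 (-0.14). The 9 tested genes of a mixed list, among them the segregase gene Vcp (-0.26), had a median of 0.01 and 0 calls. Without saline 3, Vcp was called (-0.37, edgeR adjusted p = 0.0345). Without saline 3, 0.983% of all genes were called lower and 0.853% higher. The calls of Cct8, Tomm70a and Vcp in that fit are a description, as for the members.

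The listed endoplasmic reticulum chaperones outside the members lay mostly above 0. Of 17 genes 14 were above 0, beside 8014 of all 15999 tested genes, and the median was 0.16. At an unadjusted p under 0.05 edgeR counted 5 higher and 1 lower, beside 4.28% and 4.5% of all genes, and it called 0. The members also hold genes of this compartment, so the lists do not part it from the cytosol. Pdia4 (log2 fold change 0.39), Pdia6 (0.41) and the Hspa5 exchange factor Sil1 (-0.34) had the smallest p, with edgeR adjusted p of 0.415, 0.415 and 0.451. The luminal Hsp70 Hspa5 was at 87.7 CPM in MPTP against 79.6 in saline, where its cytosolic relative Hspa8 was at 1609 and 1701 CPM. The difference between these lists was not tested.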

How the data were processed

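The 4 MPTP and 4 saline libraries were grouped by the labels and hold RNA bound to tagged ribosomes. The authors deposited raw counts per gene for 21761 Entrez identifiers. The submitters' processing notes name TopHat2 (version 2.0.8) and mm10. The sources used here do not give the counting tool, annotation or strand setting. Per the labels' protocols, cDNA was made from a few nanograms of RNA, and no molecular identifiers are mentioned, so reads may not be independent molecules. Of the symbols, 27 turned into dates were restored by Entrez identifier, and the 90 genes without a symbol (0.0505% to 0.056% of counts) kept their identifier. Counts were fitted with edgeR 4.0.16 (R 4.3.3; TMM, filterByExpr, robust quasi-likelihood F-test, no covariate) over all 15999 genes passing the filter; standard errors were derived from the fold change and the F statistic. Log2 CPM used a prior count of 2. Alternatives were other scalings and filters, DESeq2 1.42.0, limma 3.58.1 voom, a replicate block, a marker score as a covariate and leaving out each library. The fit was tested on simulated data. GENCODE vM21 gave lengths, overlaps and shared runs of 100 bases. For 16 members over 10% of these runs occur in another gene. Among them are Hspa8 (28.5%), Hspd1 (23.9%), Dnajb6 (17.1%) and Dnaja1 (16.6%), so their counts may also be split.

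The members and lists were chosen with earlier results of these data known. Named were 27 members fixed by role, any past the threshold, the 10 with the smallest p, the 3 highest and 3 lowest fold changes, and the 5 highest levels and saline coefficients of variation among members of at least 1 CPM, with up to 3 genes of each outside list. For 1 gene that this rule names, values are not reported here. Hspa2, Hspb6, Hspb11, Bag4, Dnaja2, Dnaja3, Dnajc30, Dnajc27, Dnajb13, Hspa5 and the 9 untested members fall outside this rule and were picked with their values in view. Replicate numbers did not pair the libraries.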

Additional observations from a re-analysis of the deposited data

How the results depend on the processing

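Dnajb4 kept its negative sign in all 17 alternatives. Besides those given above, its call ended with the replicate number as a block (log2 fold change -0.59, edgeR adjusted p = 0.0626), where 0 members were called lower. Same-numbered libraries deviated from their group means with correlations of only -0.12 to 0.04, so the labels' numbers are not treated as pairs; the block left 10 genes higher and 4 lower. The number of members called lower was 0 to 4 when libraries were left out. It was 0 with the replicate block, 0 without saline 3 with the non-neuronal score, and 1 in the other alternatives. The number called higher was 0 throughout. Over all genes, 7 were higher with a mean CPM of at least 5, DESeq2 called 25 higher and 28 lower, leaving out a library gave 8 to 138 higher and 0 to 159 lower, and leaving out saline 3 with the score as covariate gave 17 lower. The median log2 fold change of the members was -0.0114 with the score as covariate and 0.00396 when saline 3 was also left out (an alternative chosen after seeing the data), and -0.115 to -0.0116 when a library was left out, nearest to 0 without saline 2. Members whose groups do not overlap numbered 0 to 3 in the higher and 1 to 12 in the lower direction over the same libraries, the 12 without saline 3. Over all genes the shares were 2.04% higher and 2.14% lower with all 8 libraries. Without saline 3 they were 7.22% and 7.52%. Shares for the other libraries left out are not given, so these ranges are not read as a result about the members. Hspa4, Hspa4l and Hspd1 were called only without saline 3. The log2 fold changes of 15 of the 33 named members changed sign in some alternative, none of them called. The cause was not tested. Hspa1a, Hspa1b and Hspb1 had standard errors of 0.30 to 0.42. The called Dnajb4 had a log2 fold change of -0.59 with a standard error of only 0.09. Changes well above their standard error could go uncalled for any member, as did those of Hspa4 (-0.36, SE 0.14) and Hspd1 (-0.27, SE 0.11) with all 8 libraries. For Hspa1a, Hspa1b and Hspb1 larger changes could go uncalled. No detection limit was computed.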

Other observations

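Within each group the members tended to be high or low in the same library. Saline 2 held the highest value of its group for 34 of the 71 tested members (26.7% over all genes) and MPTP 3 for 35 (26.7%). Saline 3 held the lowest value for 34 members (29.4%) and MPTP 2 for 34 (25.8%). The median difference of the members from the mean of saline 1, 2 and 4 was 0.09 on the log2 scale in saline 2, -0.15 in saline 3, -0.15 in MPTP 2 and -0.00057 in MPTP 3, while the median over all genes lay between 0.00211 and 0.0167 in these libraries. Members are not independent of each other, and no test was made.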
